A study of Mus musculus with 6 samples.

Results

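The nuclear genes for the subunits of respiratory complexes II, III and IV, of ATP synthase (complex V) and of cytochrome c were followed in long-term haematopoietic stem cells of mouse bone marrow. They were chosen by name, as 42 symbols, and all 42 were found among the 49997 genes of the count table. The list holds 4 genes of complex II, 9 of complex III, 15 of complex IV, 13 of complex V and the somatic cytochrome c gene Cycs. Long-term stem cells (LT-HSCs, which sustain blood formation) of 4-month-old C57BL/6J mice had been sorted into an Asrij high and an Asrij low population, with 3 RNA-seq libraries of each. Asrij is the protein of Ociad1, and the sample labels give the genotype of both populations only as C57BL/6J, with no agent or treatment. The deposited table carries the tag ArjKI for all 6 libraries, which the labels do not explain, so an allele shared by both populations may go undescribed here. Whether the libraries of a population came from separate mice is not given in the sources used here, so p-values measure the spread between libraries, which may be technical.

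As background, complex II oxidises succinate and passes the electrons to ubiquinone, complex III passes them on to cytochrome c, complex IV hands them to oxygen, and ATP synthase uses the proton gradient that complexes III and IV help to build. Complexes III, IV and V are each assembled from nuclear and mitochondrially encoded subunits, whereas complex II is wholly nuclear. Resting LT-HSCs are known for relying largely on glycolysis, and respiration is known to increase when they divide or differentiate. Several subunits exist as a common form and a form typical of muscle, lung or testis.

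The nuclear subunit genes were higher in the Asrij high population in nearly every case that could be tested. Of 42 genes, 40 passed the filter on low counts, and 38 of these rose in Asrij high cells, while 0 fell. Over all 21445 genes tested, 39.4% were called in either direction, 21.7% as higher and 17.7% as lower (edgeR's quasi-likelihood test, Benjamini-Hochberg adjusted p under 0.05). Without Asrij high library 1, 36 members rose, against 13.7% of all genes tested, and 5481 genes were called, against 8452 with it. The median log2 fold change of the 40 genes was 1.58, against −0.02 over all genes tested, always as Asrij high over Asrij low. At least 2-fold rises were called for 36 members, against 13.9% of all genes tested. In 38 members every Asrij high library lay above every Asrij low library, a separation that 30.2% of all genes tested showed. In 0 members did every Asrij high library lie below every Asrij low library, which 24.8% of all genes tested showed. The 38 called members rose between 1.79-fold and 7.61-fold, with a median of 3.12-fold. Cox7a1 and Cox7a2l did not pass the test, and Cox4i2 and Cox6a2 had too few counts to be tested. Because these are bulk samples, fewer cells of a type and less RNA per cell cannot be told apart.

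Each library showed the difference when the counts of all members were added up. Summed over the 42 genes, the level was 8477, 6363 and 7567 CPM (counts per library size, adjusted with TMM factors) in Asrij high libraries 1, 2 and 3, against 2649, 3116 and 2369 CPM in Asrij low libraries 1, 2 and 3. The groups did not overlap, and their means differed by 2.75-fold. Within Asrij high, library 1 was the highest for 35 of the 40 tested members and library 2 the lowest for 30. Within Asrij low, library 2 was the highest for 23 and library 3 the lowest for 22. For the 38 called members the coefficient of variation between libraries had a median of 16.5% in Asrij high and 15.7% in Asrij low, so the spread was of similar size in both populations.

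**Figure D1:**
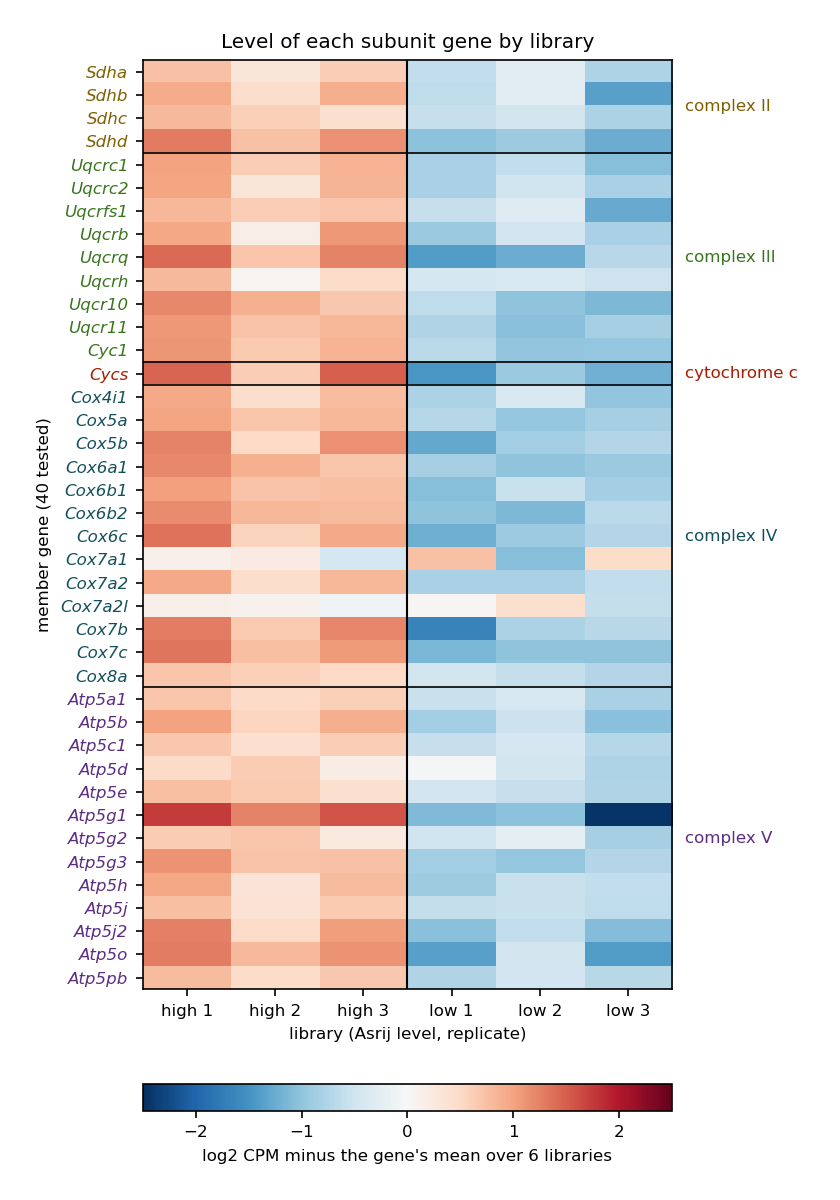
Levels of the 40 tested members in each library, as log2 CPM minus the gene's mean over the 6 libraries, with Asrij high libraries on the left, Asrij low libraries on the right and genes grouped by complex. Red marks values above and blue values below the gene's mean. The 38 called members are above their mean in the Asrij high columns and below it in the Asrij low columns, whereas Cox7a1 and Cox7a2l show no such split.

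Genes of this kind are known to share promoter motifs for the factors NRF1 and GABP (an ETS factor), which drive many nuclear respiratory genes. Promoter windows from RefSeq (GRCm38.p6, 250 bases before to 50 after each start) were available for 32 of the 42 members, in 35 windows. The core NRF1 motif, GCGC and TGCGC with any single base between them, was in 25.7% of member windows, against 6.38% of the 21263 windows of protein-coding genes. The ETS motif CCGGAAG was in 28.6% of member windows, against 11.6% of all windows. The YY1 motif AAGATGGC was in 8.57% of member windows and 3.05% of all windows, and the Sp1 motif GGGCGG in 37.1% of member windows and 46.2% of all windows. Both strands were searched, each motif was searched for on its own so that overlapping matches were kept, and the shares are descriptions of these windows without a test. The 6 promoters below are chosen examples and do not represent the motif shares of all members. They run from genes with strong and moderate rises to Cox7a2l, the member that did not pass the test despite a high level. Each line holds the 170 bases that end just before the start, from the minus strand of GRCm38.p6, with NRF1 and ETS matches in capitals on either strand.
Sdhd: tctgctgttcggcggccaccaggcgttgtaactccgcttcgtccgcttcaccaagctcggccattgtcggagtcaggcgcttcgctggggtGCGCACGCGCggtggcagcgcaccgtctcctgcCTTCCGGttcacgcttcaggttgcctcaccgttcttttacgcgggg
Uqcr11: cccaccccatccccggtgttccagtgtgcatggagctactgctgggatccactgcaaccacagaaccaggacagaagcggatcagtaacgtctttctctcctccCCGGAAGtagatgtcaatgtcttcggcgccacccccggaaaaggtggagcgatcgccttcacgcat
Cox6a1: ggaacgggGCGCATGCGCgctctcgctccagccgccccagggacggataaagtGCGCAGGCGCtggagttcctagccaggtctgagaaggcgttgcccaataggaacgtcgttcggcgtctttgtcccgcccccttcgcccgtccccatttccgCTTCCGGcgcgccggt
Atp5h: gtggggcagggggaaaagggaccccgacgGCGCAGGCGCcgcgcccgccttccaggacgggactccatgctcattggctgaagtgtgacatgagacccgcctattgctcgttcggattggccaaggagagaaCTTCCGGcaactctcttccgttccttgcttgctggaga
Atp5g2: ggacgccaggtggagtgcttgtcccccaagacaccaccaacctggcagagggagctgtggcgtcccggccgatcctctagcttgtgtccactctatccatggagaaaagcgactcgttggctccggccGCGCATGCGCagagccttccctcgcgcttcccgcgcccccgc
Cox7a2l: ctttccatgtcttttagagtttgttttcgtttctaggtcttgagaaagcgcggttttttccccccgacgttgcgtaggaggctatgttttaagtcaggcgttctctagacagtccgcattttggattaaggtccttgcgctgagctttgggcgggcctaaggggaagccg
They lie at chr9:50603850-50604019 for Sdhd, chr10:80406822-80406991 for Uqcr11, chr5:115348959-115349128 for Cox6a1, chr11:115419920-115420089 for Atp5h, chr15:102671048-102671217 for Atp5g2 and chr17:83514334-83514503 for Cox7a2l. In Sdhd an NRF1 match begins 79 bases and an ETS match 46 bases before the start, and in Atp5h these distances are 141 and 38 bases. Cox6a1 has 2 NRF1 matches, 162 and 117 bases before the start, and an ETS match at 16 bases. Uqcr11 has only an ETS match of the capitalised kinds, at 66 bases, and Atp5g2 only an NRF1 match, at 42 bases. The stretch of Cox7a2l printed here holds neither motif. The windows of Atp5g1, Cox7c and Cycs, which are among the members with the largest rises, also held no NRF1, ETS or YY1 match. The same was true of other called members, among them Atp5b, Cox5a, Cox5b, Cox7b, Uqcr10 and Uqcrfs1. Whether motif content goes with the rise was not tested.

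Complex II, succinate dehydrogenase, rose in all 4 of its subunit genes, with a median log2 fold change of 1.34. Sdhd, which with Sdhc anchors the enzyme in the inner membrane, rose most. Its level was 191, 128 and 171 CPM in Asrij high libraries, against 37.8, 41.2 and 32.5 CPM in Asrij low libraries. The lowest Asrij high library was 3.09-fold above the highest Asrij low library, and the log2 fold change was 2.13 ± 0.20 (SE, adjusted p = 2.21e-04). Sdhd lies at chr9:50596340-50603849 in GRCm38.p6, and its promoter is the first of those printed above.

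Sdha, the flavoprotein that oxidises succinate, had the highest level per kilobase in complex II but the smallest log2 fold change of the 4. It was at 434, 323 and 399 CPM in Asrij high libraries and at 171, 215 and 153 CPM in Asrij low libraries. The groups did not overlap, with a log2 difference of 1.10 ± 0.19 (SE, adjusted p = 0.00227). Sdhc, the other anchor, was at 154, 133 and 117 CPM in Asrij high libraries and at 58.8, 64.3 and 51.1 CPM in Asrij low libraries. Its rise, 1.21 ± 0.17 on the log2 scale (SE, adjusted p = 9.62e-04), was near that of Sdha. Sdhb, the iron-sulphur subunit, rose by 1.46 ± 0.28 (log2, SE, adjusted p = 0.00357). Per kilobase of transcript, Sdha and Sdhd stood at nearly equal levels in Asrij high, 133 and 132 CPM per kb, but at 61.9 and 30.2 CPM per kb in Asrij low.

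Complex III, cytochrome bc1, rose in all 9 nuclear genes listed, with a median log2 fold change of 1.66. Among its catalytic subunits, Cyc1, the cytochrome c1 that delivers electrons to cytochrome c, was at 166, 122 and 142 CPM in Asrij high libraries, against 48.2, 38.9 and 39.8 CPM in Asrij low libraries. All Asrij high libraries were above all Asrij low ones, and the log2 fold change was 1.76 ± 0.18 (SE, adjusted p = 2.93e-04). Uqcrfs1, the Rieske iron-sulphur protein, rose by 1.39 ± 0.24 (log2, SE, adjusted p = 0.00224).

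The core proteins, structural subunits that face the matrix, were the most abundant of complex III per kilobase in both populations. Uqcrc1 was at 444, 339 and 405 CPM in Asrij high libraries and at 126, 144 and 106 CPM in Asrij low libraries. The groups were well apart, with a log2 difference of 1.66 ± 0.18 (SE, adjusted p = 3.64e-04). Uqcrc2, the second core protein, rose by 1.45 ± 0.21 (log2, SE, adjusted p = 0.00107).

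The small supernumerary subunits of complex III, which carry no redox centre, had log2 fold changes from 0.92 to 2.23. Uqcrq, which lies next to cytochrome b, rose most, by 2.23 ± 0.26 (log2, SE, adjusted p = 4.29e-04), followed by Uqcr10 at 1.84 ± 0.23. Uqcr11 was at 64.8, 50.1 and 54.4 CPM in Asrij high libraries and at 18.3, 14.8 and 17.3 CPM in Asrij low libraries. It did not overlap between groups and rose by 1.75 ± 0.19 (log2, SE, adjusted p = 3.69e-04). Uqcrb rose by 1.52 ± 0.28 on the log2 scale. Uqcrh, the hinge protein beside cytochrome c1, rose least of the complex. It was at 59.2, 34.8 and 46.3 CPM in Asrij high libraries and at 24.7, 25.8 and 23.4 CPM in Asrij low libraries, a log2 difference of 0.92 ± 0.22 (SE, adjusted p = 0.00976). Its lowest Asrij high library was only 1.35-fold above its highest Asrij low library, and without Asrij high library 1 the call was lost, at a log2 fold change of 0.68 and an adjusted p of 0.0679.

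Cytochrome c, the small carrier between complexes III and IV that also acts in apoptosis, showed one of the largest rises. Cycs, at chr6:50562563-50566569, was at 148, 82.7 and 151 CPM in Asrij high libraries and at 19.6, 28.3 and 23.5 CPM in Asrij low libraries. Library 2 was the lowest of Asrij high but still 2.93-fold above the highest Asrij low library. The log2 fold change was 2.42 ± 0.26 (SE, adjusted p = 3.36e-04). Cycs made up 1.75%, 1.30% and 1.99% of the counts of the 42 members in Asrij high libraries, against 0.739%, 0.907% and 0.991% in Asrij low libraries.

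Complex IV, cytochrome c oxidase, is the complex whose list holds most of the forms typical of particular tissues. Of 15 genes, 13 were tested, 11 rose and 0 fell, with a median log2 fold change of 1.68 over the 13. Cox4i1, the common form of the largest nuclear subunit, was at 569, 399 and 501 CPM in Asrij high libraries, against 169, 225 and 148 CPM in Asrij low libraries. No library crossed between groups, and it rose by 1.44 ± 0.21 (log2, SE, adjusted p = 0.00116). Per kilobase it was the most abundant nuclear gene of the complex in both populations, at 639.99 CPM per kb in Asrij high and 236 CPM per kb in Asrij low.

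The other common subunits of complex IV rose as well. Cox7c, a small membrane subunit, was at 172, 114 and 141 CPM in Asrij high libraries and at 30.7, 33.5 and 33.7 CPM in Asrij low libraries, a log2 fold change of 2.13 ± 0.19 (SE). Its adjusted p of 2.14e-04 was the smallest of all members, and the Asrij low libraries lay close together. Cox5a, a matrix-side subunit, was at 76.7, 62.0 and 68.3 CPM in Asrij high libraries and at 23.4, 19.7 and 21.5 CPM in Asrij low libraries. It rose by 1.68 ± 0.18 (log2, SE, adjusted p = 3.09e-04) with little spread in either group. Cox5b, its zinc-binding neighbour, rose by 1.93 ± 0.25, Cox6c by 1.93 ± 0.25, Cox7b by 2.06 ± 0.29 and Cox8a by 1.19 ± 0.17 on the log2 scale. Cox8a was the smallest rise among the called genes of the complex.

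The tissue forms of complex IV differed in how far they were detected. Cox4i2, the lung form of subunit 4, had 2, 10 and 0 counts in Asrij high libraries and 0, 0 and 8 counts in Asrij low libraries. Cox6a2, the form of heart and skeletal muscle, had 0, 2 and 0 counts in Asrij high libraries and 16, 4 and 0 counts in Asrij low libraries. Both were close to the limit of detection, since a library with 0 counts allows up to 3 counts, and no fold change is given. Their partners were plentiful. Cox6a1, the common form of subunit 6a, was at 116, 92.9 and 81.4 CPM in Asrij high libraries and at 28.2, 24.9 and 26.3 CPM in Asrij low libraries, a rise of 1.87 ± 0.18 (log2, SE, adjusted p = 2.53e-04).

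Cox6b2, known as the testis form of subunit 6b, was clearly detected in both populations and rose together with the common form Cox6b1. It had 5664, 5209 and 5249 counts in Asrij high libraries and 1243, 615 and 753 counts in Asrij low libraries. These are 104, 81.8 and 79.6 CPM in Asrij high, against 23.0, 21.3 and 29.1 CPM in Asrij low, without overlap. Its log2 fold change was 1.86 ± 0.20 (SE, adjusted p = 3.12e-04). Cox6b1 was at 158, 127 and 131 CPM in Asrij high libraries and at 37.1, 52.8 and 42.9 CPM in Asrij low libraries, with a log2 difference of 1.65 ± 0.18 (SE, adjusted p = 3.84e-04). Cox6b2 took 39.7%, 39.2% and 37.8% of the Cox6b counts in Asrij high libraries and 38.3%, 28.7% and 40.4% in Asrij low libraries. Per kilobase Cox6b2 stood at 151 CPM per kb in Asrij high and 41.8 CPM per kb in Asrij low, against 224 and 71.6 CPM per kb for Cox6b1. This gap depends on the transcript taken for Cox6b2. With its shortest transcript, of 423 instead of 585 bases, Cox6b2 stood at 209 CPM per kb in Asrij high and 57.8 CPM per kb in Asrij low. The log2 ratio of Cox6b2 to Cox6b1 differed by 0.20 (Asrij high minus Asrij low, exact two-sided permutation p = 0.70, 3 libraries each), and the groups overlapped.

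The subunit 7a family held the members that did not rise. Cox7a2, the common form, was at 53.1, 37.3 and 49.0 CPM in Asrij high libraries and at 15.7, 15.7 and 17.8 CPM in Asrij low libraries, a rise of 1.504 ± 0.21 (log2, SE, adjusted p = 8.32e-04). Cox7a1, the heart and muscle form, was near 1 CPM throughout. It was at 1.10, 1.16 and 0.743 CPM in Asrij high libraries and at 1.68, 0.485 and 1.39 CPM in Asrij low libraries. The groups overlapped, the log2 fold change was −0.25 ± 0.68 (SE, adjusted p = 0.797), and it turned to 0.13 without Asrij low library 1.

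Cox7a2l, a relative of Cox7a2, was expressed well above Cox7a1 yet did not separate the populations. It was at 153, 148 and 130 CPM in Asrij high libraries and at 142, 181 and 92.0 CPM in Asrij low libraries. The Asrij low libraries spanned the whole range of the Asrij high ones. The log2 fold change was 0.05 ± 0.23 (SE, adjusted p = 0.876), and it took either sign with other scalings or without single libraries, between −0.22 and 0.33. Per kilobase, Cox7a2l ranked 7 of the 15 genes of complex IV in Asrij high, at 127 CPM per kb, and 2 of 15 in Asrij low, at 123 CPM per kb. The pseudogene Gm6969, a copy that can share its reads, holds 17.7% of the 50-base stretches of Cox7a2l, and its counts were 33.4% of those of Cox7a2l. Gm6969 had a log2 difference of −0.12 ± 0.20 (SE, adjusted p = 0.667), also without a call. The gene lies at chr17:83501917-83514333, and its promoter is the last of those printed above.

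ATP synthase rose in all 13 nuclear genes listed, with a median log2 fold change of 1.29. Of the catalytic head, Atp5b, the beta subunit that makes ATP, and Atp5a1, the alpha subunit beside it, both rose. Atp5b had the highest level per kilobase of the complex, 887 CPM per kb in Asrij high and 286 CPM per kb in Asrij low. It was at 1930, 1388 and 1783 CPM in Asrij high libraries, against 528, 657 and 461 CPM in Asrij low libraries, and rose by 1.63 ± 0.21 (log2, SE, adjusted p = 6.84e-04). Atp5a1 was at 994, 865 and 935 CPM in Asrij high libraries and at 418, 466 and 352 CPM in Asrij low libraries, and rose by 1.18 ± 0.18 (log2, SE, adjusted p = 0.00122). Both genes kept the groups fully apart.

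The central stalk, which turns inside the head, had log2 fold changes from 0.84 to 1.21. Atp5c1, the gamma subunit, rose by 1.14 ± 0.16 and Atp5e, the epsilon subunit, by 1.21 ± 0.18 on the log2 scale. Atp5d, the delta subunit, was at 71.9, 79.1 and 58.2 CPM in Asrij high libraries and at 49.6, 37.1 and 29.9 CPM in Asrij low libraries. Its groups were the closest of the called members, with the lowest Asrij high library 1.17-fold above the highest Asrij low library. At 0.84 ± 0.22 (SE, adjusted p = 0.0143), the log2 fold change of Atp5d was the smallest called. The call was lost with scaling by library totals (0.56, adjusted p = 0.102) or upper quartiles (0.57, adjusted p = 0.0639), without Asrij high library 1 (0.77, adjusted p = 0.0535), without Asrij low library 3 (0.66, adjusted p = 0.0513) and without both Asrij low library 3 and Asrij high library 2 (0.56, adjusted p = 0.0945).

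The peripheral stalk, which holds the head still, rose in all 4 of its listed genes. Atp5pb, subunit b, was at 182, 144 and 169 CPM in Asrij high libraries and at 62.2, 74.9 and 64.8 CPM in Asrij low libraries. The groups were clearly separate, with a log2 difference of 1.29 ± 0.16 (SE, adjusted p = 6.01e-04), which was the median of the complex. Atp5o, the OSCP subunit that ties the stalk to the head, rose by 2.08 ± 0.27, Atp5h, subunit d, by 1.40 ± 0.20 and Atp5j, coupling factor 6, by 1.19 ± 0.17 on the log2 scale. Atp5j2, subunit f of the membrane part, rose by 1.86 ± 0.24 (log2, SE).

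The c-ring, the rotor in the membrane, is built from 1 protein that mice encode in 3 genes, Atp5g1, Atp5g2 and Atp5g3, which differ in the import signal and yield the same mature subunit. All 3 genes rose, with log2 fold changes from 1.05 to 2.93. Atp5g1, at chr11:96072793-96075694, had the largest rise of all members. It was at 145, 103 and 129 CPM in Asrij high libraries, against 20.2, 21.3 and 7.91 CPM in Asrij low libraries. The lowest Asrij high library was 4.82-fold above the highest Asrij low library, and the log2 fold change was 2.93 ± 0.35 (SE, adjusted p = 4.81e-04), a 7.61-fold rise. Asrij low library 3 was the lowest of its group, and without it the log2 fold change was 2.58.

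Atp5g3 was at 141, 106 and 108 CPM in Asrij high libraries and at 35.7, 33.3 and 39.1 CPM in Asrij low libraries. It rose by 1.72 ± 0.17 (log2, SE, adjusted p = 2.92e-04), without overlap. Atp5g2 was at 185, 192 and 140 CPM in Asrij high libraries and at 83.7, 100.4 and 66.3 CPM in Asrij low libraries. It rose least of the 3, by 1.05 ± 0.20 (log2, SE, adjusted p = 0.00364), and its groups were separated by a 1.40-fold gap. The pseudogenes Gm10175 and Gm10231 hold 87.4% and 57.5% of the 50-base stretches of Atp5g2 and together had 41.7% of its counts, so its value as a single gene is uncertain. Gm10175 and Gm10231 had nearly equal counts in every library (2006 and 1908 in Asrij high library 1, for example). The same reads may thus be counted in both, and singly they had 21.3% and 20.4% of the Atp5g2 counts.

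The c-subunit counts can also be read as shares of the 3 genes, which are not corrected for transcript length. Atp5g1 supplied 30.8%, 25.6% and 34.2% of the counts of the 3 genes in Asrij high libraries, against 14.5%, 13.7% and 6.98% in Asrij low libraries. Atp5g2 supplied 39.2%, 47.9% and 37.2% in Asrij high libraries, against 59.96%, 64.8% and 58.5% in Asrij low libraries. Atp5g3 supplied 29.9%, 26.5% and 28.7% in Asrij high libraries and 25.6%, 21.5% and 34.5% in Asrij low libraries. The shares of Atp5g1 and Atp5g2 did not overlap between groups, while those of Atp5g3 did. The log2 ratio of Atp5g1 to Atp5g2 differed by 1.99 and that of Atp5g1 to Atp5g3 by 1.33 (Asrij high minus Asrij low, exact two-sided permutation p = 0.1 each, the smallest that 3 against 3 libraries allow). Without Asrij low library 3 the difference for Atp5g1 to Atp5g3 was 0.81. Atp5g2 to Atp5g3 differed by −0.65 (exact permutation p = 0.2).

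Of 8 isoform pairs listed, 6 could be compared in this way, and with 3 libraries each none could reach the threshold. Cox7a2l to Cox7a2 differed by −1.38 and Cox7a1 to Cox7a2 by −1.62 on the log2 ratio scale (exact permutation p = 0.1 each). For Cox7a1 this rested on the prior count of 2 added to each count: without it the difference was −1.57, the groups overlapped and the exact permutation p was 0.2, in a setting added after the data were seen. Adjusted over the 6 pairs (Benjamini-Hochberg), the exact permutation p was 0.15 for 4 pairs (Atp5g1 to Atp5g2, Atp5g1 to Atp5g3, Cox7a2l to Cox7a2 and Cox7a1 to Cox7a2), 0.24 for Atp5g2 to Atp5g3 and 0.70 for Cox6b2 to Cox6b1. Cox7a1 made up 2.03%, 3.02% and 1.49% of the Cox7a1 and Cox7a2 counts in Asrij high libraries and 9.69%, 3.004% and 7.24% in Asrij low libraries. With 14 to 91 Cox7a1 counts per library, the exact 95% binomial interval for Asrij low library 2 ran from 1.65% to 4.99%, an interval that covers counting error only.

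**Figure D2:**
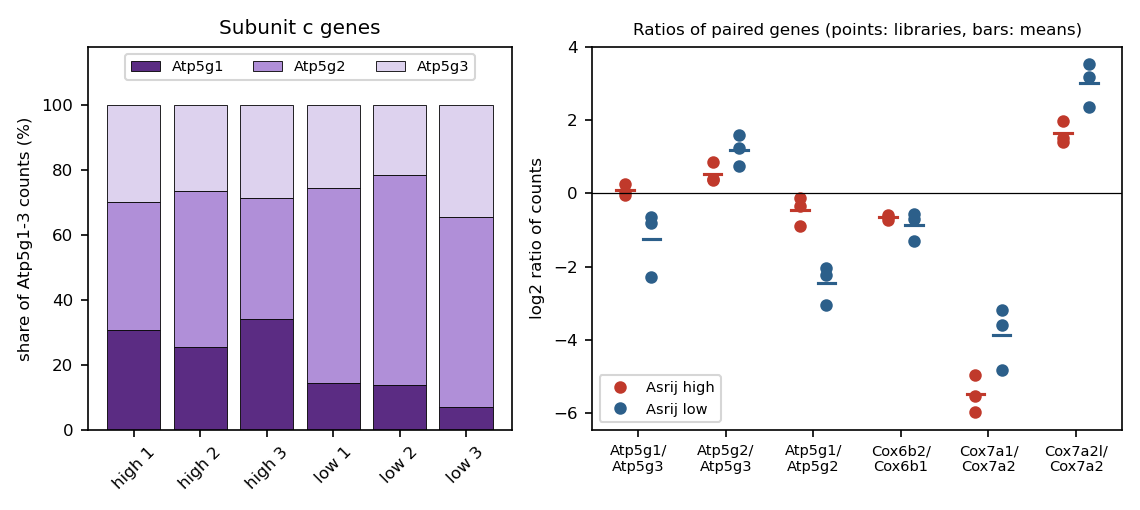
Left, the share in percent of Atp5g1, Atp5g2 and Atp5g3 in the counts of the 3 c-subunit genes in each library, Asrij high libraries first. Right, the log2 count ratio of 6 isoform pairs, 1 point per library. Atp5g1 takes 25.6% to 34.2% of the c-subunit counts in Asrij high and 6.98% to 14.5% in Asrij low, and the Cox6b2 to Cox6b1 ratio overlaps between groups.

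**Figure D3:**
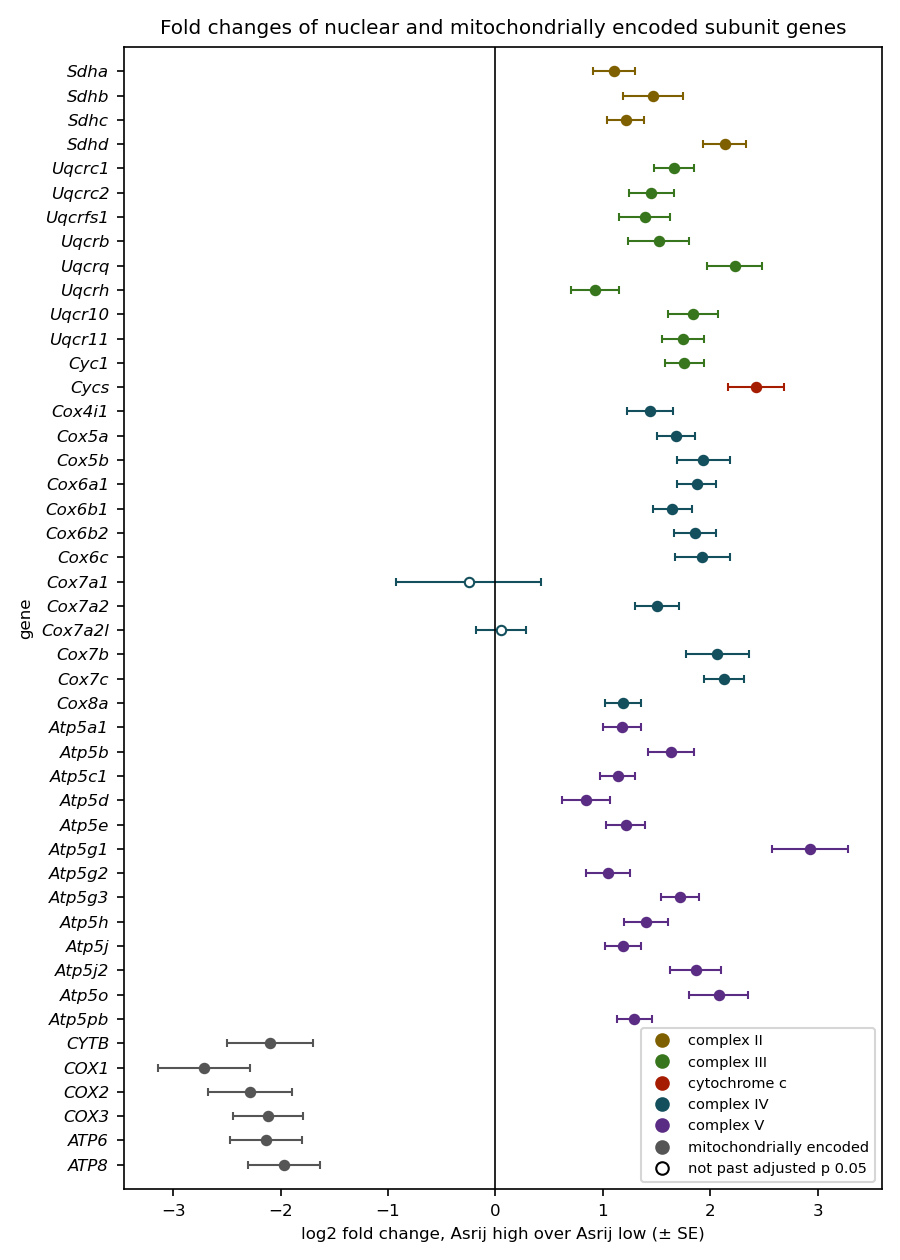
Log2 fold change of each tested member (Asrij high over Asrij low, bars are ± 1 SE), grouped by complex, with the 6 mitochondrially encoded subunits below. Filled circles passed the test and open circles did not. The members run from −0.25 for Cox7a1 to 2.93 for Atp5g1, and the mitochondrially encoded subunits from −2.71 to −1.97.

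The mitochondrially encoded partners of these subunits went the other way. All 6 tested genes (CYTB of complex III, COX1, COX2 and COX3 of complex IV, ATP6 and ATP8 of complex V) fell in Asrij high cells, where 17.7% of all genes tested fell. COX1, the catalytic subunit of complex IV, was at 874, 843 and 988 CPM in Asrij high libraries, against 3673, 3477 and 10595 CPM in Asrij low libraries. The groups were far apart, Asrij low library 3 was the highest by a wide margin, and the log2 fold change was −2.71 ± 0.42 (SE, adjusted p = 0.00146), or −2.01 without that library. CYTB was at 256, 177 and 261 CPM in Asrij high libraries and at 577, 681 and 1713 CPM in Asrij low libraries. Its log2 fold change of −2.10 ± 0.40 (SE, adjusted p = 0.0041) became −1.46 without Asrij low library 3, and its call was lost without the count filter (adjusted p = 0.0709). COX2 fell by 2.28 on the log2 scale, or by 1.67 without Asrij low library 3. ATP6 and the nuclear copy Gm10925 had almost equal counts in every library (73343 and 72896 in Asrij low library 1, for example), so reads of the pair cannot be told apart.

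Within a complex, nuclear and mitochondrial transcripts moved in opposite directions. In complex IV the summed level of nuclear members was 1710, 1275 and 1455 CPM in Asrij high libraries and 541, 658 and 499 CPM in Asrij low libraries, while that of COX1, COX2 and COX3 was 1510, 1286 and 1509 CPM in Asrij high libraries and 5280, 5206 and 14698 CPM in Asrij low libraries. The nuclear sum was higher and the mitochondrial sum lower in every Asrij high library. Over complexes III, IV and V together there were 0.340, 0.343 and 0.338 mitochondrially encoded counts per nuclear count in Asrij high libraries, against 3.21, 2.90 and 9.62 in Asrij low libraries. The log2 ratio differed by −3.72 (Asrij high minus Asrij low), or by −3.16 without Asrij low library 3, a setting chosen after the data were seen. The 3 Asrij high libraries were nearly identical in this pooled ratio, and Asrij low library 3 stood apart. Single complexes varied more across Asrij high libraries 1, 2 and 3. In complex IV the ratio was 0.883, 1.01 and 1.04. In complex V it was 0.175, 0.139 and 0.120, and in complex III 0.191, 0.187 and 0.219.

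**Figure D4:**
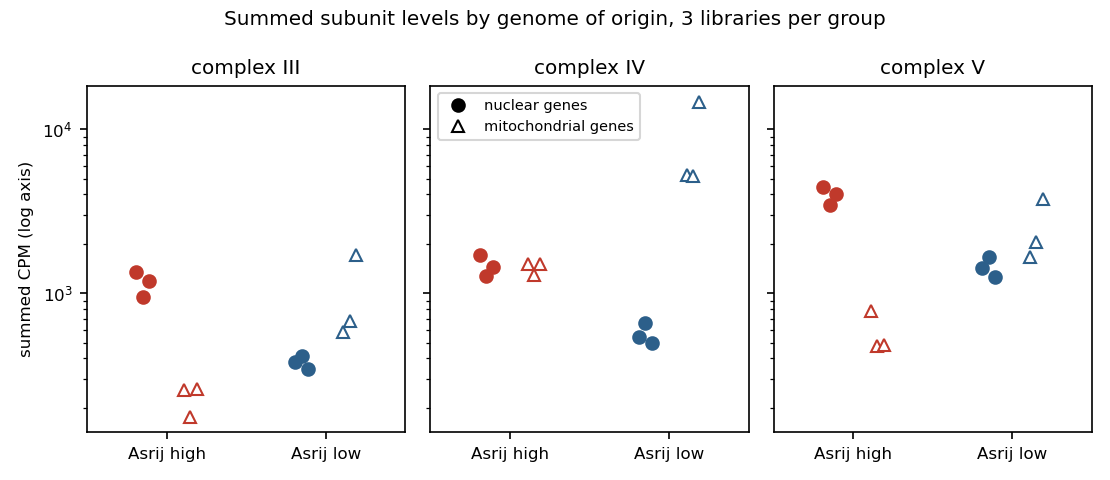
Summed CPM on a log axis of nuclear members (circles) and mitochondrially encoded subunits (triangles) of complexes III, IV and V in each library, Asrij high left of Asrij low. Nuclear sums are higher in every Asrij high library and mitochondrial sums are higher in every Asrij low library. In complex IV the mitochondrial sum reaches 14698 CPM in Asrij low library 3.

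Other nuclear subunits of the same complexes that were not among the 42 also rose in most cases. Of 12 listed, 8 were tested, 6 rose and 0 fell. Atp5k (subunit e) rose by 2.35 ± 0.34, Atp5md (a small subunit of the membrane part) by 2.21 ± 0.26, Atpif1 (the inhibitor that stops ATP synthase from running in reverse) by 1.92 ± 0.23 and Ndufa4 (now placed in complex IV) by 1.82 on the log2 scale. Dmac2l had a log2 fold change of 0.14 (adjusted p = 0.712), and Cox6c2 one of 1.95 from at most 46 counts per library (adjusted p = 0.267). GENCODE vM21 lists Cox6c2 as a processed pseudogene, and it holds 21.1% of the 50-base stretches of Cox6c. It is therefore also among the copies counted below. Nuclear subunits of complex I, the largest entry point of electrons, rose in 31 of 36 tested genes and fell in 0, with a median log2 fold change of 1.40, against 1.58 for the 40 tested members.

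Genes that build or feed these complexes were counted in the same way. Among assembly factors of complexes II to V, 15 of 39 rose and 0 fell, with a median of 0.66. They include Cox17, a copper chaperone for complex IV, at 1.70, and Lrpprc, which stabilises mitochondrial transcripts, at 1.36. Of 8 genes for other electron donors to ubiquinone, 5 rose and 0 fell (median 1.08), among them Chdh, choline dehydrogenase, at 2.23 and Etfa, of the electron transfer flavoprotein, at 1.51. Of 13 genes of ubiquinone synthesis, 8 rose and 1 fell (median 0.84). The hydroxylase gene Coq7 was at 24.6, 13.9 and 23.4 CPM in Asrij high libraries and at 1.80, 1.28 and 4.09 CPM in Asrij low libraries, a rise of 3.12 ± 0.46 (log2, SE), or 3.71 for the log2 fold change of Coq7 without Asrij low library 3, whereas Coq8a, of an atypical kinase family, fell by 1.67. These medians are log2 fold changes and no test compared the lists with one another.

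Of 16 regulators of nuclear respiratory genes tested, 9 rose and 0 fell, with a median log2 fold change of 0.59. Nrf1, whose motif is capitalised above, rose by 0.69, Gabpa, the DNA-binding part of GABP, by 0.66, Pprc1, a coactivator of the PGC-1 family, by 1.11 and Hcfc1, a cofactor of GABP, by 1.04 on the log2 scale. Of the other GABP genes, Gabpb2 rose by 0.94 on the log2 scale. Gabpb1 leaned the other way without a call (log2 fold change −0.38, adjusted p = 0.108), with every Asrij high library below every Asrij low library. Ppargc1a, the coactivator PGC-1 alpha, was low, at 0.275, 0.44 and 0.303 CPM in Asrij high libraries and 0.518, 2.29 and 1.47 CPM in Asrij low libraries, and did not pass the test (log2 fold change −2.05, adjusted p = 0.069).

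Several features of the libraries moved with the groups, and their part in the rise of the 38 members was not tested. Library totals ran from 62732782 to 72855125 counts in Asrij high and from 24707012 to 46240743 in Asrij low. The 42 members took 0.736%, 0.612% and 0.685% of all counts in Asrij high libraries and 0.309%, 0.335% and 0.248% in Asrij low libraries. Ociad1 averaged 80.3 ± 5.76 CPM in Asrij high, against 51.6 ± 5.72 CPM in Asrij low (SD, n = 3 each), a log2 fold change of 0.64 (adjusted p = 0.0115) that was not called with library totals, with upper quartiles or without Asrij high library 1. All 10 proliferation markers rose, with summed levels of 3585 to 5447 CPM in Asrij high, against 700.3 to 994 CPM in Asrij low. Of 10 markers of LT-HSCs, 9 fell, with sums of 421 to 686 CPM in Asrij high, against 1247 to 1462 CPM in Asrij low, and none was at 0 in all libraries. Of 10 erythroid markers 5 fell and 2 rose (3901 to 7578 CPM in Asrij high, 11110 to 81083 CPM in Asrij low), and of 10 granulocyte markers 3 rose and 2 fell (3924 to 7099 CPM in Asrij high, 919 to 3842 CPM in Asrij low). The granule genes Mpo and Elane, known from early granulocyte progenitors, rose by 17.8-fold and 17.7-fold, and the erythroid genes Ermap and Klf1 by 16.0-fold and 4.02-fold. The genes that fell were 4 globins, Alas2, Mmp8 and Mmp9, which are known from later stages. The calls of Mpo and Ermap were lost without Asrij high library 1, where the log2 fold change of Mpo was 4.01 (adjusted p = 0.0536) and the log2 fold change of Ermap 3.79 (adjusted p = 0.0535), and Ermap was at 4.73 without Asrij low library 3. The log2 fold change of Hbb-bs was −2.90 (adjusted p = 0.0101), or −1.95 without Asrij low library 3. The call of Hbb-bs was lost without the count filter and without Asrij high library 1, 2 or 3 (adjusted p up to 0.112). Markers of B and plasma cells fell in 7 of 9 (21.0 to 28.3 CPM in Asrij high, 87.1 to 238 CPM in Asrij low), of macrophages in 5 of 7 (36.8 to 48.1 CPM in Asrij high, 69.3 to 197 CPM in Asrij low) and of mesenchymal cells in 7 of 7 (23.2 to 75.6 CPM in Asrij high, 240.1 to 769 CPM in Asrij low). No marker of these lists was at 0 in all libraries. Leaving out Asrij low library 3 and Asrij high library 2 together, 37 members rose, against 20.2% of all genes tested, with a median log2 fold change of 1.66.

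Shared and overlapping reads touch some members. For 11 members the table holds a copy that shares at least 5% of their 50-base stretches, 17 copies in all, of which 16 were tested, 8 rose and 0 fell. Cycs has 3 copies with 49.1% of its counts and log2 fold changes of 2.37 to 3.15, and Atp5g1 has Gm10039, with 19.0% of its counts and a log2 fold change of 1.10. Exons of other members overlap exons of another gene in GENCODE vM21. On the opposite strand these include Atp5d with Cbarp (log2 fold change −0.13), Atp5j with Gabpa, Atp5pb with Wdr77, Atp5a1 with Haus1, Cox4i1 with Emc8, Cox6c with Vps13b, Uqcrc2 with Pdzd9, Uqcrb with Gm10767, Cox5a with Gm26631 and Cox6a2 with Itgad. Vps13b had 37441 counts over the 6 libraries where Cox6c had 10234, and its log2 fold change was −0.18 (adjusted p = 0.388). Itgad had 540 counts where Cox6a2 had 22. On the same strand, exons that GENCODE vM21 assigns to Donson (log2 fold change 1.10) overlap Atp5o. The GRCm38.p6 spans of these genes do not overlap, with Donson at chr16:91666856-91688932 and Atp5o at chr16:91925223-91931630. The kit keeps strand, but the strand setting of the counting is not given in the sources used here, so the values of all these overlapping members are uncertain.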

How the data were processed

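Whole-number read counts per gene, not normalized, were deposited by the authors for 6 libraries of bulk RNA. The submitters' processing notes list mm10 as the genome build and, as tools, HISAT2, Subread, SAMtools and FastQC. For these the sources used here give no version, annotation or counting option. The labels name polyA RNA in one field and ribosomal RNA depletion in another.

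Genes were tested with edgeR 4.0.16 in R 4.3.3 (TMM factors, filterByExpr with a minimum count of 10 and a minimum total of 15, robust quasi-likelihood fit with group as the only term), adjusted over 21445 genes, threshold 0.05. SEs were derived from the quasi-likelihood statistic. Levels are CPM with TMM factors, and levels between genes were compared per kilobase of the longest transcript (GENCODE vM21). Isoform ratios used a prior count of 2 and exact permutation tests. Copies were found by shared 50-base stretches. The pipeline was tested on simulated counts of 22409 genes, of which 98 were changed. It recovered 10 of the 98 at 2-fold and 51 of the 98 at 4-fold, with 5 false calls in each case. All 42 members are described; full per-library values follow a rule by complex and by paralogue, and Atp5a1, Atp5b, Coq7 and Ppargc1a were added after their values were seen. The members and lists were chosen with earlier results of these data known. Alternatives were other filters and scalings, DESeq2 1.42.0, limma-voom 3.58.1, a replicate block and leaving out libraries. Coordinates are those of GRCm38.p6.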

Additional observations from a re-analysis of the deposited data

How the results depend on the processing

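Over 14 alternatives, 36 to 38 members were called higher and 0 lower, while 13.7% to 24.0% of all genes tested were called higher. The median log2 fold change of members was 1.30 with library totals and 1.31 with upper quartile factors, which shifted the median of all genes from −0.02 to −0.29 and −0.30, and cut the share of calls that were higher from 55.1% to 40.2% and 39.9%. Relative to all genes, the members' median was 1.60 as reported and 1.59 and 1.60 with these scalings. Leaving out single libraries, the members' own median ran from 1.45 to 1.76 (1.502 to 1.79 relative to all genes), and the count of all genes called from 5481 (without Asrij high library 1) to 8935, against 8452. Without that library 36 members were called, and with library totals, with upper quartiles and without Asrij low library 3, 37 were.

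The log2 fold change of Cox7a2l turned to −0.22 with library totals and −0.21 with upper quartiles, between −0.19 and 0.33 with single libraries left out (−0.029 without Asrij high library 1), and to −0.21 with Asrij low library 3 and Asrij high library 2 both left out. The log2 fold change of Dmac2l turned to −0.14 with either of the 2 scalings. The log2 fold change of Cox7a1 ran from −0.59 to 0.13, and the difference in isoform log2 ratio Cox6b2/Cox6b1 from −0.027 to 0.35. The cause was not tested. Over 560 values of members, 548 stayed on the same side, 6 lost the call, 0 gained one and 6 reversed.

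The replicate block left 38 members higher and 8088 genes called. Same-numbered libraries correlated at 0.013, 0.046 and 0.225, so the numbers were not taken to pair samples. Cox4i2 and Cox6a2, with 20 and 22 counts over the 6 libraries, were not tested. For the 6 isoform ratios the exact permutation p cannot fall below 0.1.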
